A study of Rattus norvegicus with 6 samples.

Results

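Sodium-coupled solute transporters were taken from the deposited table as every gene symbol that begins with Slc5a, Slc6a, Slc9a, Slc12a or Slc38a followed by a number, which gave 59 of 17030 symbols. They comprise 12 symbols of the Slc5 family, 18 of Slc6, 11 of Slc9, 9 of Slc12 and 9 of Slc38. Of the 59, 57 are carriers, and 2 (Slc9a3r1 and Slc9a3r2) are scaffold proteins that bind the sodium/proton exchangers and match the symbol rule without being carriers.

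The measurements are mRNA levels in PAIII tumors, a transplantable rat prostate adenocarcinoma, grown under the skin of the flank of Lobund-Wistar rats that were injected at 2 months of age. Rats A1, A6 and A12 are labelled digitoxin (0.03 mg/kg per day from day 10) and rats B5, B9 and B14 are labelled vehicle, so n = 3 in each group. Tumors were removed at day 40. By the study's methods, the authors chose treated rats with low serum IL-6 and CINC-1 and control rats with high levels, so treatment and these serum markers cannot be told apart in the comparison. Each library came from pooled micropunches of 1 tumor, and the values are FPKM, read fragments scaled to transcript length and to library size.

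Digitoxin is a cardiac glycoside that blocks the sodium pump (Na,K-ATPase), which keeps sodium low inside cells. Most of the carriers described here use that gradient, while the potassium-chloride exporters among the Slc12 members use that of potassium. Slc5 members bring in sugars, vitamins and inositol with sodium, and Slc6 members bring in transmitters, amino acids and osmolytes such as taurine, betaine and creatine. Slc9 members exchange sodium for protons, Slc12 members move chloride with sodium or potassium, and Slc38 members carry neutral amino acids. Slc6a6 (taurine), Slc5a3 (myo-inositol) and Slc6a12 (betaine) are classical osmolyte carriers, whose genes are targets of the tonicity factor Nfat5 in kidney cells.

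Libraries A12 and B14, 1 of each group, stood apart from the other 4 and are given separately throughout. Sftpc, the surfactant protein of lung alveolar cells, was at 19188 to 63514 FPKM in A1, A6, B5 and B9, against 0.229 in A12 and 0 in B14. Over the 9 alveolar markers in the table, the summed level was 27738 to 84533 FPKM in those 4 tumors and 42.0 and 64.3 FPKM in A12 and B14, where Sftpb, Sftpa1 and Lamp3 were listed at 0. The 6 airway markers summed to 21103 to 131810 FPKM against 9.62 and 7.04 FPKM, and the 5 fibroblast markers to 78.0 to 446 FPKM against 1659 and 2756 FPKM. Tumor A6 also differed from the other 5: it held the lowest of the 6 values for 50.4% of the 10749 tested rows, and the summed level of 6 cell division genes was 31.4 FPKM there against 195 to 375 FPKM in the other 5. A6 had the highest alveolar and airway sums too. Its scaling factor by median of ratios was the lowest, at 0.820 against 1.009 to 1.178. The part of lung RNA or of scaling in the low values of A6 was not tested. Of the prostate markers, Pbsn was listed at 0 in every tumor, while the epithelial keratin Krt8 was at 398 to 2095 FPKM. In bulk tissue, fewer cells of a type and less RNA per cell cannot be told apart. Earlier work on these data questioned the labels of A1 and B9, which was not tested here, so directions hold only for the libraries as labelled, and the main counts, medians and members without overlap are also given without A1 and B9.

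For 2 of the members whose tumors separated by label (Slc6a6 and Slc5a3), and for the scaffold gene that varied most between libraries (Slc9a3r2), the 250 bases before the annotated gene start are printed from RefSeq (build GRCr8), 5′ to 3′ on the gene's strand. RefSeq gave such a window for 49 of the 59 members. In Slc6a6 (chr4:125752252-125752501, plus strand) capitals mark TTTCCA, the reverse complement of the TonE core TGGAAA that Nfat5 binds, and the TATA box TATAAA, while 3 SP1 boxes in that window are left in lower case. In Slc5a3 (chr11:44799537-44799786, plus strand) capitals mark a CCAAT box, and the window holds no TonE core. In Slc9a3r2 (chr10:14177520-14177769, minus strand, named Nherf2 in RefSeq) capitals mark 5 SP1 boxes, GGGCGG or its reverse complement. Which windows to print, and which motifs to mark, was decided after the matches were seen.
Slc6a6: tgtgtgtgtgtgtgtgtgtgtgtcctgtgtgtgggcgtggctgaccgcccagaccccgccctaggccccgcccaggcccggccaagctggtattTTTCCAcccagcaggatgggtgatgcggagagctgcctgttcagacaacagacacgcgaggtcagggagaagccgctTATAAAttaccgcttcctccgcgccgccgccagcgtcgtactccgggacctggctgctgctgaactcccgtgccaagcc
Slc5a3: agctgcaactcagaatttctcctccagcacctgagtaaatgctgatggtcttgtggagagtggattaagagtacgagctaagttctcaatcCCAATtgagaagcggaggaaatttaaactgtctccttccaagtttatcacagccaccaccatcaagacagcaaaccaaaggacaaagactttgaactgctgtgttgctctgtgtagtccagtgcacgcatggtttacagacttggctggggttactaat
Slc9a3r2: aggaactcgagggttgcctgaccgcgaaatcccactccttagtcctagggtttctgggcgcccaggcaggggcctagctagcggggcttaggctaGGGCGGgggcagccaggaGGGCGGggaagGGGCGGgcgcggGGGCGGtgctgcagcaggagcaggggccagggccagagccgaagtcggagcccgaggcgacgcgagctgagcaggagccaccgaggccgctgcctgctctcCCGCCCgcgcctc

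Searched on both strands, the TonE core was in 5 of the 49 member windows (10.2%), against 19.5% of 27457 windows of the same length over all genes. The SP1 box GGGCGG was in 22 of 49 (44.9%) against 32.4% of all windows, the E-box CACGTG in 7 (14.3%) against 5.79%, and the CCAAT box in 17 (34.7%) against 34.3%. The TATA box TATAAA was in 5 (10.2%) against 13.1%. The NFκB consensus was in 3 member windows (6.12%) against 6.41% of all, and the amino acid response core TGATGNAAT in 0 against 0.929%. A match is a run of letters and not a known binding site.

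Of the 59 symbols, 31 averaged 1 FPKM or more and entered the test, and 13 averaged 10 FPKM or more. The other 28 were below 1 FPKM on average, and 4 of these (Slc5a4, Slc5a7, Slc6a3 and Slc6a11) were listed at 0 in every tumor. A listed 0 need not mean low expression in this table, which gives Col1a2 as 0 in all 6 tumors and Col1a1 at up to 1665 FPKM. Only Slc5a10, Slc6a7, Slc12a5 and Slc38a4 among the 28 reached 1 FPKM in any tumor. The carriers at 0 or close to it included the kidney cotransporters Slc12a1 and Slc12a3 and the kidney exchanger Slc9a3, with at most 0.102 FPKM, and the dopamine carrier Slc6a3.

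**Figure D1:**
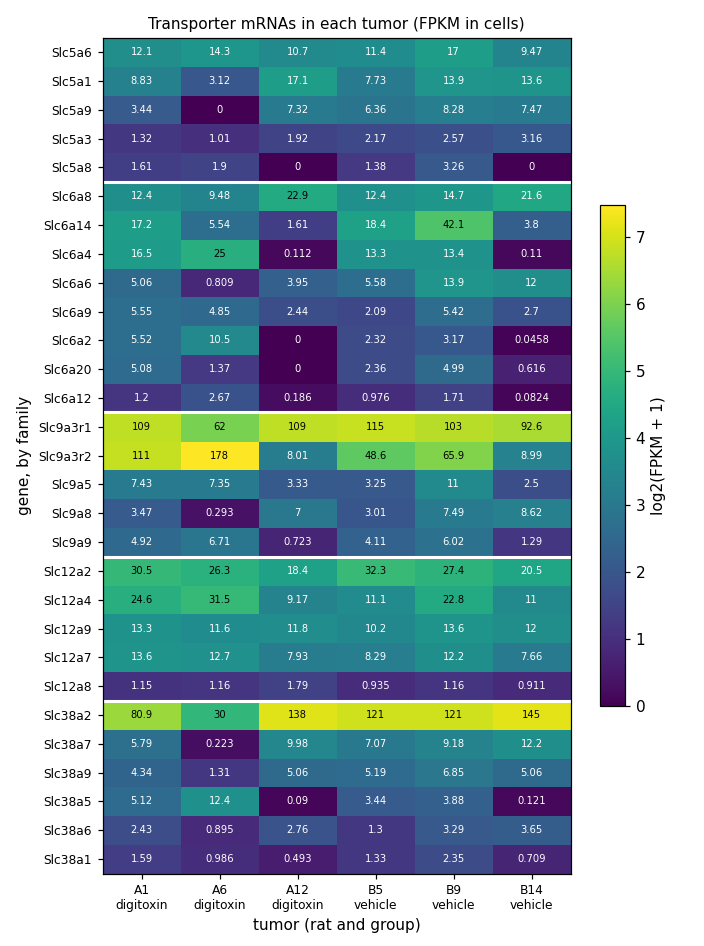
FPKM of 29 of the 31 transporter symbols that averaged 1 FPKM or more (rows, by family and then by mean) in the 6 tumors (columns), colored by log2(FPKM + 1). Slc38a2, Slc9a3r1 and Slc9a3r2 were the most abundant, and several rows (Slc6a4, Slc6a2, Slc38a5, Slc5a8) were near 0 in A12 and B14 only.

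The most abundant carrier was Slc38a2 (SNAT2), which takes up neutral amino acids and is known to be induced by amino acid shortage and by high tonicity. It measured 80.9, 30.0 and 138 FPKM in A1, A6 and A12, and 121, 121 and 145 FPKM in B5, B9 and B14. Next among the carriers came Slc12a2 (NKCC1), the sodium-potassium-chloride importer that swells cells, with a mean of 25.9 FPKM, and Slc12a4 (KCC1), a potassium-chloride exporter, with 18.4 FPKM. The creatine carrier Slc6a8 had 15.6 FPKM, the broad amino acid carrier Slc6a14 14.8, the multivitamin carrier Slc5a6 12.5, the chloride cotransporter relative Slc12a9 12.1, the serotonin carrier Slc6a4 11.4, the glucose carrier Slc5a1 (SGLT1) 10.7 and Slc12a7 (KCC4) 10.4 FPKM. Of the scaffolds, Slc9a3r1 had 98.2 and Slc9a3r2 70.2 FPKM. The table places Slc6a8 on chromosome 1, while RefSeq places the gene on another chromosome, so its value is uncertain.

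For comparison, Atp1b1, the beta subunit of the pump that digitoxin binds, was at 193, 108 and 135 FPKM in A1, A6 and A12, and at 138, 118 and 124 FPKM in B5, B9 and B14. The groups overlapped, with a log2 difference of 0.15 (standard error 0.26) between digitoxin and vehicle.

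The first comparison asked whether transporter mRNAs differed between digitoxin and vehicle tumors. No member passed the test: with limma on log2(FPKM + 1), 0 of 31 had an adjusted p under 0.05 over all rows, against 0 of 10749 rows (0%), and the smallest adjusted p was 0.926. One member, the taurine carrier Slc6a6, had an unadjusted p under 0.05, as did 36 of all rows (0.335%), 29 of them lower (0.27%) and 7 higher (0.0651%). In the fit that blocked on replicate number Slc6a6 was again the only such member, against 446 of all rows (4.15%), and with a term for A12 and B14 it was Slc6a6 and Slc6a14, against 3.95% of all rows. Without A1, A6, A12, B5, B9 or B14 in turn, 1, 0, 5, 1, 0 and 0 members had an unadjusted p under 0.05, against 0.344%, 0.121%, 19.7%, 0.177%, 0.121% and 0.484% of all rows. The log2 difference was below 0 for 19 of the 31 and above 0 for 12, or 61.3% lower against 64.9% of all tested rows. The members' median was -0.14 and that of all rows -0.16. With median-of-ratios scaling of the libraries the median of all rows became 0.0177 and that of the members 0.0116, with 14 of 31 lower. Without A1 and B9, 17 of 31 members were lower with a median of -0.14, against -0.17 for all rows, and 0 members had an unadjusted p under 0.05, against 0.102% of all rows.

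**Figure D2:**
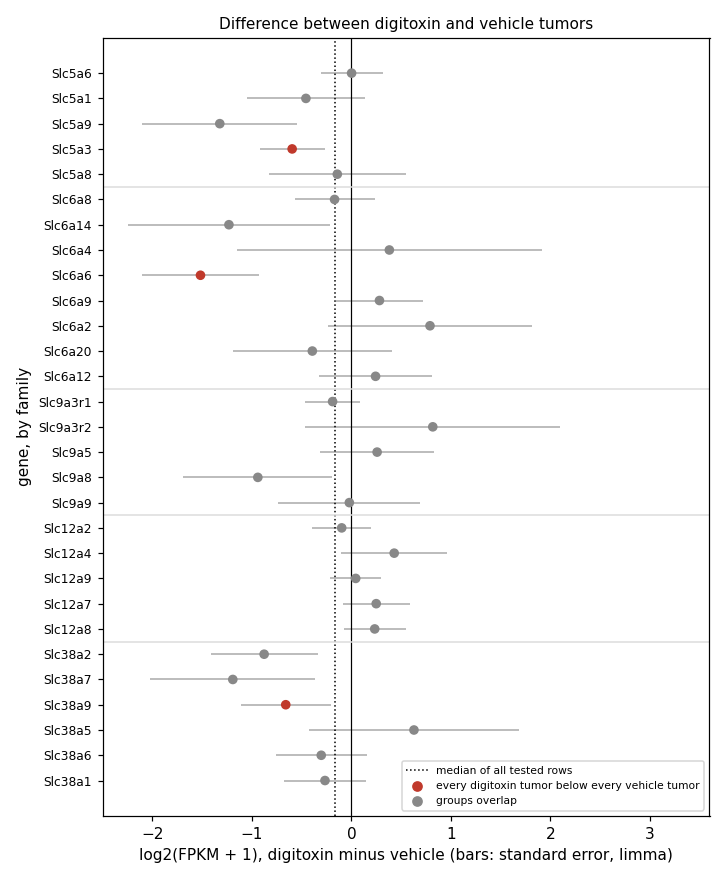
Difference in log2(FPKM + 1) between digitoxin and vehicle tumors (n = 3 each) for 29 of the 31 tested transporter symbols, with standard errors from limma; the dotted line is the median of all tested rows, -0.16. The 3 red points (Slc5a3, Slc6a6 and Slc38a9) are those for which every digitoxin tumor lay below every vehicle tumor, and none passed the adjusted threshold.

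By family, the medians of the log2 differences were -0.46 for 5 tested Slc5 members (4 lower), 0.0367 for 8 of Slc6 (4 lower), -0.0531 for 6 of Slc9 (4 lower), 0.14 for 6 of Slc12 (2 lower) and -0.48 for 6 of Slc38 (5 lower). None of these was tested as a group. Without A1 and B9 they were -0.38, 0.14, 0.0407, 0.19 and -0.50, and without A6 -0.42, -0.26, 0.0316, 0.0863 and -0.24, so the medians of Slc6 and Slc9 changed sign in at least 1 of these.

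In 3 of the 31 members every digitoxin tumor was below every vehicle tumor (Slc6a6, Slc5a3 and Slc38a9), and in 0 it was above. Among all tested rows the shares were 3.26% and 0.902%. Leaving out tumors for this list was added after seeing the data. It can only keep or lengthen the list, so the same 3 had to stay in it. The list held 4, 3, 7, 6, 3 and 4 members without A1, A6, A12, B5, B9 or B14, against 6.75%, 3.66%, 35.2%, 10%, 4.88% and 8.15% of all rows. Without both A1 and B9 the list held 4 members, against 8.42% of all rows, and again had to hold these 3. The log2 differences were then -1.63 for Slc6a6, -0.58 for Slc5a3 and -0.71 for Slc38a9. With the labels of A1 and B9 exchanged, the groups would overlap for all 3.

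Slc6a6, the carrier that concentrates taurine in cells, lies at 188176237 to 188245992 on chromosome 4 in the positions of the table. It measured 5.06, 0.809 and 3.95 FPKM in A1, A6 and A12, and 5.58, 13.9 and 11.98 FPKM in B5, B9 and B14. The highest digitoxin tumor, A1, was just under the lowest vehicle tumor, B5. The digitoxin mean of 3.27 ± 2.21 FPKM was 3.20-fold lower than the vehicle mean of 10.5 ± 4.36 FPKM (SD, n = 3 in each). The log2 difference was -1.52 (standard error 0.59), with unadjusted p = 0.0396 and adjusted p = 0.926 by limma. Between A12 and B14, the libraries with almost no lung mRNA, it was -1.39, and between A1 with A6 and B5 with B9 it was -1.58. With 1 tumor left out it ran from -1.88 (without B5) to -0.98 (without A6), and it had an unadjusted p under 0.05 without A1, A12 or B5 but not without A6, B9 or B14, nor without both A1 and B9. It was also above 0.05 with a pseudocount of 0.1 (an unadjusted p of 0.0517 from limma, log2 difference -1.89) and with no filter on low values (0.0632), where 0.233% and 1.05% of all rows had one under 0.05.

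Slc5a3, the sodium/myo-inositol carrier, measured 1.32, 1.01 and 1.92 FPKM in A1, A6 and A12, and 2.17, 2.57 and 3.16 FPKM in B5, B9 and B14. All values were low, and the highest digitoxin tumor, A12, was just under the lowest vehicle tumor, B5. The means were 1.42 ± 0.463 and 2.63 ± 0.499 FPKM (SD, n = 3 in each), and the log2 difference was -0.60 (standard error 0.33, adjusted p = 0.926 by limma). It was -0.51 between A12 and B14 and -0.64 between the pairs of the other 4 tumors. Slc38a9, a lysosomal carrier known as an arginine sensor for mTORC1, measured 4.34, 1.31 and 5.06 FPKM in A1, A6 and A12, and 5.19, 6.85 and 5.06 FPKM in B5, B9 and B14. A12 and B14 were thus almost equal, and the log2 difference of -0.66 (standard error 0.45) became -0.23 without A6.

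Of the osmotic response list, 10 of 11 genes were tested, 4 of them also members (Slc5a3, Slc6a6, Slc6a12 and Slc38a2). None passed the adjusted threshold, 6 had a log2 difference below 0 and 4 above, and the median was -0.39 against -0.16 for all rows. In 3 of the 10 every digitoxin tumor was below every vehicle tumor, against 3.26% of all tested rows, and these were Slc6a6 and Slc5a3, already described, and Nfat5. Nfat5, the factor that raises osmolyte carriers under high tonicity, was at 8.48, 5.64 and 8.21 FPKM in A1, A6 and A12 and 8.89, 16.0 and 10.5 FPKM in B5, B9 and B14. Its log2 difference was -0.58 (standard error 0.34). The aldose reductase gene Akr1b1, which makes the osmolyte sorbitol, had 0.18, and the betaine carrier Slc6a12 had 0.24 (standard error 0.57), at 1.20, 2.67 and 0.186 FPKM with digitoxin and 0.976, 1.71 and 0.0824 FPKM with vehicle. The values of the osmolyte carriers thus lay on both sides of 0, and none but Slc6a6 had an unadjusted p under 0.05.

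**Figure D3:**
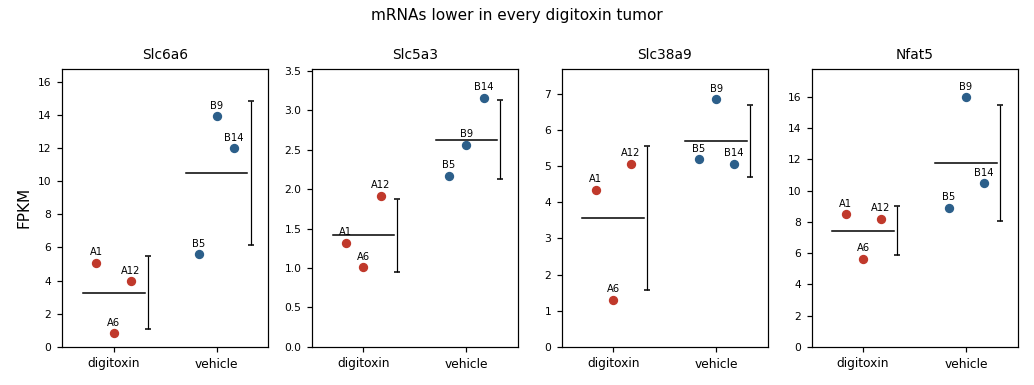
FPKM of Slc6a6, Slc5a3, Slc38a9 and Nfat5 in each tumor, on a linear axis from 0, with the mean (line) and SD (bar) of the 3 digitoxin and 3 vehicle tumors. Every digitoxin point lies below every vehicle point, with A12 at 5.06 FPKM just under B14 for Slc38a9, and A6 is the lowest tumor in each panel.

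Other amino acid carriers of the Slc38 family were also at their lowest in A6. Slc38a7, a lysosomal exporter of glutamine and asparagine, was at 5.79, 0.223 and 9.98 FPKM in A1, A6 and A12 and at 7.07, 9.18 and 12.2 FPKM in B5, B9 and B14. Its log2 difference of -1.19 (standard error 0.83) had overlapping groups. The difference for Slc38a2 was -0.88 (standard error 0.54), and it was -0.28 without A6 and -0.0779 between A12 and B14. A6 held the lowest value for 13 of the 31 members (41.9%), near its 50.4% of all rows. Among them were the mannose carrier Slc5a9, listed at 0 in A6 and at 3.44 to 8.28 FPKM in the others, and the Golgi exchanger Slc9a8, at 0.293 FPKM in A6 and 3.01 to 8.62 FPKM in the others. The low cell division mRNAs in A6 moved with these values, and their part in the result was not tested.

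Genes of the amino acid response, which share induction by Atf4 with Slc38a2, were read from the same fit. Of 19 tested, 15 had a log2 difference below 0 and 4 above, with a median of -0.26, against 64.9% lower and -0.16 for all rows. Of the 19, 0 passed the adjusted threshold or had an unadjusted p under 0.05. Without A6, 9 of 19 were lower and the median was 0.0110, while that of all rows was -0.0800.

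The second pattern followed the libraries rather than the labels. A12 and B14 held the 2 lowest values for 14 of the 31 members (45.2%), against 29.3% of all tested rows, and the 2 highest for 3 members (9.68%), against 30.1% of all rows. These counts describe 2 libraries and were not tested. Slc6a members made up 5 of the 14, and Slc6a4 had the widest range of log2(FPKM + 1) of the 31, at 4.55.

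Slc6a4, the serotonin carrier, which lung capillary endothelium uses to clear serotonin from blood, was at 16.5, 25.0 and 0.112 FPKM in A1, A6 and A12, and at 13.3, 13.4 and 0.110 FPKM in B5, B9 and B14. It was thus nearly absent in 1 tumor of each group and at 13.3 FPKM or more in the others. Slc6a2, the norepinephrine carrier, which lung endothelium also has, measured 5.52, 10.5 and 0 FPKM in A1, A6 and A12, and 2.32, 3.17 and 0.0458 FPKM in B5, B9 and B14. Slc38a5 (SNAT5), a glutamine carrier, measured 5.12, 12.4 and 0.0900 FPKM in A1, A6 and A12, and 3.44, 3.88 and 0.121 FPKM in B5, B9 and B14.

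In these 3 genes A12 and B14 were almost alike across the treatment labels. Their log2 differences over all tumors were 0.38, 0.79 and 0.63, with standard errors of 1.53, 1.02 and 1.05. That of Slc6a2 ran from 0.0666 without A6 to 1.83 without A12. Without A12 and B14, A1 and A6 were above B5 and B9 for Slc12a4, Slc12a7, Slc38a5, Slc6a2, Slc6a4 and Slc9a3r2, or 6 of 31 members, against 17.2% of all rows. The opposite held for 8 members (Slc38a2, Slc38a7, Slc38a9, Slc5a3, Slc5a9, Slc6a14, Slc6a6 and Slc6a8), against 40% of all rows. In that fit of 2 against 2 tumors, Slc38a2, Slc5a9, Slc6a2 and Slc9a3r2 had an unadjusted p under 0.05, as did 11.0% of all rows, and no member passed the adjusted threshold (smallest adjusted p = 0.392, limma), against 2 of all rows (0.0186%).

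Slc9a3r2 (NHERF2), the scaffold that tethers Slc9a3 and other membrane proteins to ezrin, had the largest absolute spread of the members. It measured 111, 178 and 8.01 FPKM in A1, A6 and A12, and 48.6, 65.9 and 8.99 FPKM in B5, B9 and B14. Its relative Slc9a3r1 (NHERF1) varied by only 1.85-fold over the tumors, at 109, 62.0 and 109 FPKM in A1, A6 and A12 and 115, 103 and 92.6 FPKM in B5, B9 and B14. The log2 differences between the groups were 0.82 (standard error 1.28) for Slc9a3r2 and -0.19 (standard error 0.28) for Slc9a3r1, and both groups overlapped.

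**Figure D4:**
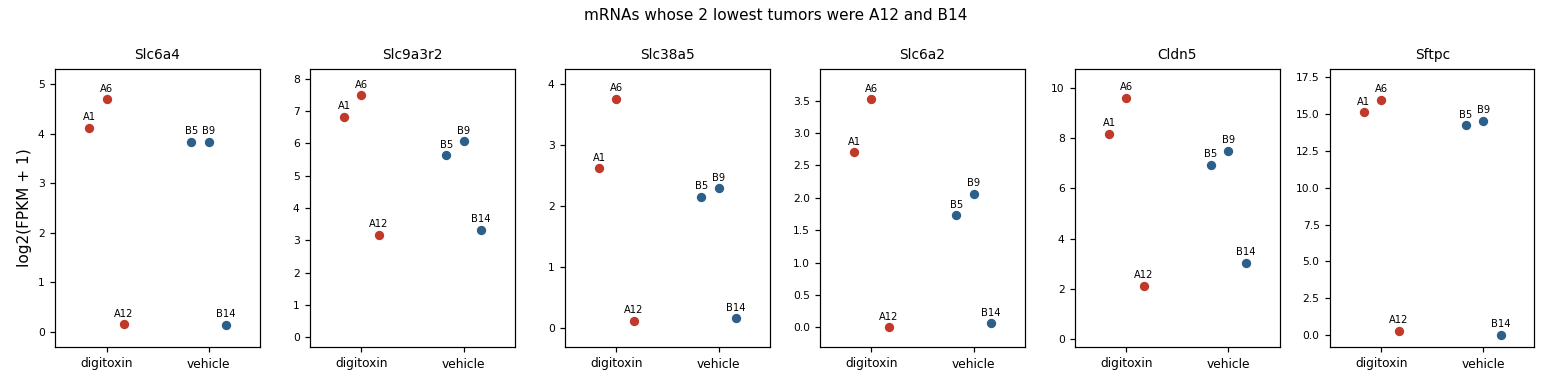
Log2(FPKM + 1) of Slc6a4, Slc9a3r2, Slc38a5 and Slc6a2 in each tumor, beside the endothelial marker Cldn5 and the alveolar marker Sftpc (each panel has its own axis). A12 and B14 are the 2 lowest tumors in every panel, and A6 is the highest in every panel.

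Endothelial markers moved with these genes. The summed level of the 8 endothelial markers was 254 to 1217 FPKM in A1, A6, B5 and B9 and 75.3 and 91.5 FPKM in A12 and B14, and A12 and B14 were lowest for 6 of the 7 that were tested. Cldn5 was at 286, 767 and 3.37 FPKM in A1, A6 and A12 and at 121, 178 and 7.17 FPKM in B5, B9 and B14. Pecam1 was still at 13.5 and 16.9 FPKM in A12 and B14. Neutrophil markers summed to 10948 to 62399 FPKM in the 4 tumors and to 1287 and 3284 FPKM in A12 and B14, which were lowest for 5 of the 6. Macrophage markers did not share a direction: A12 and B14 were lowest for 4 of the 6 and highest for the other two (C1qa and C1qb), and the sums were 596 and 998 FPKM there against 489 to 710 FPKM. The part of lung alveolar, airway, endothelial and neutrophil RNA in the transporter values was not tested.

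Other carriers were also lowest in A12 and B14. Slc6a14, which takes up neutral and cationic amino acids with sodium and chloride at airway surfaces, was at 17.2, 5.54 and 1.61 FPKM in A1, A6 and A12, and at 18.4, 42.1 and 3.80 FPKM in B5, B9 and B14. Its log2 difference of -1.23 (standard error 1.01) was within the spread between tumors, and it ran from -2.09 (without B14) to -0.51 (without B9). Slc5a8, a monocarboxylate carrier, was listed at 0 in A12 and B14 and at 1.38 to 3.26 FPKM in the other 4. The proline carrier Slc6a20 was listed at 0 in A12 and at 0.616 FPKM in B14, against 1.37 to 5.08 FPKM in the others. The endosomal exchanger Slc9a9 was at 0.723 and 1.29 FPKM in A12 and B14 against 4.11 to 6.71 FPKM.

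A smaller set was highest in A12 and B14. The creatine carrier Slc6a8 was at 22.9 and 21.6 FPKM in these tumors and at 9.48 to 14.7 FPKM in the other 4, and Slc38a2 and Slc38a7 were the other two. Of the amino acid response genes, 15 of 19 likewise had their 2 highest values in A12 and B14, against 30.1% of all tested rows.

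Of the chloride carriers, Slc12a9 had the smallest ratio of highest to lowest value of the 31 members. It was at 13.3, 11.6 and 11.8 FPKM in A1, A6 and A12 and at 10.2, 13.6 and 11.97 FPKM in B5, B9 and B14, a 1.33-fold ratio. Slc12a2 was at 30.5, 26.3 and 18.4 FPKM in A1, A6 and A12 and at 32.3, 27.4 and 20.5 FPKM in B5, B9 and B14. The exporter Slc12a4 spread more, with 24.6, 31.5 and 9.17 FPKM in A1, A6 and A12 and 11.1, 22.8 and 11.0 FPKM in B5, B9 and B14. Their log2 differences were 0.0431, -0.0976 and 0.43, with standard errors of 0.26, 0.30 and 0.53. Slc12a7 had 0.25 (standard error 0.34). Without A6 the value of Slc12a4 was 0.0937 and without A12 0.93, and that of Slc12a7 was 0.12 without A1 and 0.47 without A12.

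Of the proton exchangers, Slc9a5, known mainly from brain, was at 7.43, 7.35 and 3.33 FPKM in A1, A6 and A12 and at 3.25, 10.97 and 2.50 FPKM in B5, B9 and B14. Its groups overlapped, with a log2 difference of 0.26 (standard error 0.58).

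Of the sugar and vitamin carriers, Slc5a1 was at 8.83, 3.12 and 17.1 FPKM in A1, A6 and A12 and at 7.73, 13.9 and 13.6 FPKM in B5, B9 and B14. Its log2 difference of -0.46 (standard error 0.59) became 0.11 without A6. Slc5a6, which carries biotin and pantothenate, was at 12.1, 14.3 and 10.7 FPKM in A1, A6 and A12 and at 11.4, 16.98 and 9.47 FPKM in B5, B9 and B14, and the groups had nearly the same mean, 12.4 ± 1.84 and 12.6 ± 3.90 FPKM (SD, n = 3 in each).

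Other genes of sodium handling were read from the same fit. None of the 12 tested genes of the sodium pump list (subunits and FXYD regulators) passed the adjusted threshold, with 6 lower and 6 higher. Fxyd3, a pump regulator of epithelia, was above in every digitoxin tumor, at 345, 477 and 414 FPKM in A1, A6 and A12 against 325, 257 and 331 FPKM in B5, B9 and B14, with a log2 difference of 0.43 (standard error 0.23). It was the only one of the 12 without overlap, against 0.902% of all rows in that direction. Fxyd4 had the largest difference of the list, -2.59 (standard error 1.61), with overlapping groups. Of 14 tested carriers of other sodium-coupled families, 9 were lower and 5 higher and 0 passed, with a median of -0.16. Of 14 tested kinases and partners of ion carriers, such as Wnk1, Oxsr1 and Ezr, 13 were lower on average and 1 higher, 0 passed, and the median was -0.44, against 64.9% lower and -0.16 for all rows. A6 held the lowest value for 11 of the 14, and without A6 12 were lower with a median of -0.0981, against -0.0800 for all rows. For 8 of these 14 the 2 highest values were in A12 and B14. Of 6 tested sodium, chloride and potassium channel genes of epithelia, 2 were lower and 4 higher (median 0.26) and 0 passed, while without A6 5 were lower and the median was -0.13, and A12 and B14 were lowest for 4.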

How the data were processed

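Messenger RNA was measured in 6 tumors. By their methods, the authors sequenced TruSeq libraries (Genome Analyzer IIx, single reads), aligned them with Bowtie2 and TopHat2, and deposited FPKM from Cufflinks. Use of strand and scaling between tumors are not given in the sources used here. The labels name hg19, a human build, while the table holds rat positions of an unnamed build. Steps between low FPKM fixed no reliable depth (at most 3.97% of values at the commonest ratio), so the depth, counting error and detection limits are unknown.

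The table has 17557 rows. All 6 value columns matched a sample. No transporter symbol was on more than 1 row. The 10749 rows averaging 1 FPKM or more were tested with limma 3.58.1 in R 4.3.3 (eBayes with a trend) on log2(FPKM + 1), two-sided, with Benjamini-Hochberg adjustment over all rows. The scale understates the change of low mRNAs. The code was tested on simulated data. Python 3.11.15, pandas 2.3.3 and matplotlib 3.10.9 were used for the rest. p-values measure the spread between these rats.

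Named transporters average 10 FPKM or more, or have no overlap between groups, an unadjusted p under 0.05, the highest mean of a family, or 1 of the 5 largest log2 ranges; others named were picked after their values were seen. Some genes that meet this rule are counted but not reported here by name. Members, lists and rules were chosen with earlier results of these data known. The fit was repeated without the filter, with 0.1 as pseudocount, without the trend, after scaling by median of ratios, blocking on replicate number, with a term for A12 and B14, and without both or each single tumor. Leaving out A1 and B9 was added after seeing the data.

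Deviations from the group means correlated between same-numbered libraries at r = 0.426, 0.606 and 0.869 across genes. The main fit did not pair the libraries, and blocking on replicate number was run as an alternative. No source names a shared day or batch for a number. Of the unlike-numbered pairs, A1 with B9 had 0.644, above A1 with B5 (0.426), and A6 with B5 had 0.612, near A6 with B9 (0.606). The 4 that joined A12 or B14 to another library ran from -0.75 to -0.661. Only A12 with B14 stood apart as a same-numbered pair.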

Additional observations from a re-analysis of the deposited data

How the results depend on the processing

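No transporter passed the adjusted threshold under any of the 14 alternatives run. With the replicate block, 1 member (Slc6a6) had an unadjusted p under 0.05, as without it, and no call of a member changed, while the count over all rows went from 36 to 446. The count of members with an unadjusted p under 0.05 was 0 with a pseudocount of 0.1 (0.233% of all rows), 0 with no filter (1.05%), 0 without A1 and B9, 2 with a term for A12 and B14 (Slc6a6 and Slc6a14), 4 without those libraries, and from 0 to 5 with 1 tumor left out, the highest without A12. With no filter, 33 of 59 members were lower on average. The median of the members became 0.0116 with median-of-ratios scaling and ran from -0.27 (without B14) to 0.0632 (without A12) with 1 tumor left out. It was 0.0603 without B9. In the same fits the median of all rows was 0.0177 with scaling, -0.225 without B14, -0.226 without A12 and -0.124 without B9. The count of members lower in every digitoxin tumor was also taken with tumors left out, which was chosen after seeing the data. Leaving out tumors can only keep or raise this count. It was 8 without A12 and B14 and ran from 3 to 7 with 1 tumor left out, the highest without A12, with 6 without B5.

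With median-of-ratios scaling the log2 difference changed sign for Slc6a8 (0.0116), Slc9a3r1 (0.00482) and Slc12a2 (0.0922). Without A12 and B14 it did for Slc5a6 (-0.0747). With 1 tumor left out, signs changed within these ranges: Slc5a6 -0.17 to 0.22, Slc5a1 -0.96 to 0.11, Slc6a8 -0.51 to 0.0872, Slc6a4 -0.85 to 1.80, Slc9a3r1 -0.32 to 0.0764, Slc9a3r2 -0.0241 to 2.14, Slc12a2 -0.27 to 0.10, Slc12a9 -0.0567 to 0.13 and Slc38a5 -0.16 to 1.65. The cause was not tested. Slc6a6, Slc5a3, Slc38a9, Slc38a2 and Slc6a14 stayed below 0 in all 14 alternatives, and Slc6a2, Slc12a4 and Slc12a7 above 0. For Slc6a6, Slc5a3 and Slc38a9, whose groups did not overlap, leaving out tumors or changing the pseudocount, filter or trend could not change the sign. The replicate block and the term for A12 and B14 gave the same log2 differences as the main fit.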
